A study of Mus musculus with 21 samples.

Results

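The 3' tRNA fragments described here are short reads that ended with the CCA tail of a tRNA. A read was taken as a member when, turned to the sense strand of its tRNA gene, it reached the 3' end of that gene, carried the added CCA behind the last encoded base and was 15 to 45 nt long. Each distinct sequence was counted once by adding its counts over all genes at which it was listed. Of 32458 distinct sense sequences in the tRNA-seq table, 4028 met these conditions, with 3973190 of 179835950 counts (2.21%). The sense sequence was the deposited one for 3816 of them and its reverse complement for 212. The members were 18 to 45 nt long and belonged to 51 isoacceptor families or joined families, where a family holds the tRNA genes with 1 anticodon and a joined family holds sequences that several families share. Of the members, 1013 were seen in all 8 libraries and carried 88.3% of the member counts, while 1109 were seen in 1 library.

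The study asked how loss of NSun2, an RNA methyltransferase, alters tRNAs in mouse skin. Its tRNA-seq data are 4 wild-type (WT) and 4 NSun2-/- libraries, described by the submitters as independent biological replicates. All 8 came from total RNA of shaved, snap-frozen back skin of male mice at postnatal day 25, when hair follicles begin to grow, on a C57Bl6/J CBA F1 background. The NSun2-/- mice carried a gene trap allele (clone D014D11), a single insertion line carried in all tissues, and the WT mice came from the same breedings. Ribosomal RNA had been depleted, and RNA of 20 to 200 nt had been selected by gel or by column, without a statement of which library was prepared in which way. Because the libraries hold small RNA of whole skin, neither the Nsun2 mRNA nor markers of skin cell types were measured, so that the genotype labels and the tissue could not be checked from them, and fewer cells of a type cannot be told apart from less RNA per cell.

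A tRNA receives its CCA tail after transcription, when a dedicated enzyme adds these bases to the trimmed 3' end so that the tRNA can be charged with an amino acid. A short read with the tail therefore derives from a processed tRNA, and its first base shows where the chain was cut or ended: in the T loop, in the T stem, in the stretch from the 3' strand of the anticodon stem through the variable loop, or in the anticodon loop. NSun2 methylates cytosines where the variable loop meets the T stem, at positions 48 to 50 of many tRNAs, and in most tRNAs the adenosine at position 58 of the T loop carries a methyl group at which reverse transcriptases insert other bases. In the numbering used here the tail is 74 to 76, the discriminator base before it is 73, a fragment of 28 nt begins at position 49, the first base of the T stem, and position 58 is the 19th base from the 3' end.

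The sequences shown are fragments on which the results turn: abundant ones of each main length, the commonest one of each ArgTCT gene, and pairs that differ at position 58. They are written 5' to 3' as DNA, and the capitals mark position 58, where it lies within the read, and the CCA tail.
ArgTCT of chr19.trna637 with T at 58, 37 nt: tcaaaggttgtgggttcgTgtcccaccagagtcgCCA
ArgTCT of chr19.trna637 with G at 58, 37 nt: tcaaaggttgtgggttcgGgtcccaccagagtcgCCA
ArgTCT of chr3.trna628, 37 nt: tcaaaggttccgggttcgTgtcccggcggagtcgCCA
ArgTCT of chr13.trna985, 37 nt: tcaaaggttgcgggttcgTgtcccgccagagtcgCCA
ArgTCT of chr11.trna1818, 37 nt: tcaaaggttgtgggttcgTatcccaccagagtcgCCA
HisGTG, 37 nt: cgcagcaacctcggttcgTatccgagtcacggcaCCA
AspGTC with T at 58, 40 nt: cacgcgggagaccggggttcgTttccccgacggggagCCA
AspGTC with A at 58, 40 nt: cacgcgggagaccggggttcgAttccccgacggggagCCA
GluTTC, 40 nt: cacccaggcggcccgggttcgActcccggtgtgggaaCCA
GlyTCC, 29 nt: cccgggttcgTttcccggccaacgcaCCA
LeuCAG, 22 nt: tcgGatcccactcctgacaCCA
GluTTC, 18 nt: ctcccggtgtgggaaCCA
The fragments of 37 nt began in the 3' strand of the anticodon stem, at position 39 in HisGTG and 40 in ArgTCT, those of 40 nt in the anticodon loop at position 36, that of 29 nt at position 48 and those of 22 and 18 nt inside the T loop. The encoded part of the ArgTCT fragments lay on the minus strand of mm9 at chr19:12086078-12086111, chr3:121995866-121995899, chr13:22009031-22009064 and chr11:68936984-68937017. In the mm9 annotation the genes on chromosomes 19 and 13 overlapped no annotated gene, the gene on chromosome 3 lay in an intron of the long non-coding RNA Gm17494, and the gene on chromosome 11 overlapped an exon of Hes7 on the opposite strand. The HisGTG, AspGTC, GluTTC and GlyTCC sequences matched 6, 8, 4 and 5 genes each, so that their counts cannot be assigned to 1 locus.

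The libraries held between 17352126 and 36749727 counts, of which 232461 to 977435 were member counts. The counts used here, which were added over all listed genes, cannot be taken as independent reads. Among 2919 members seen in at least 2 libraries, the 8 added counts shared a common factor above 1 for 65.7%. The median factor was 5, and it was 65 for the AspGTC fragment with T at position 58. Whether the factors lay in the deposited counts or arose when these were added was not settled. A common factor leaves the fold between genotypes within a sequence as it is. The filter on low counts, the p-value of a test on counts and the level of one sequence against another all depend on it. No counting intervals are given for this reason, and errors are the spread between libraries. NSun2-/- replicate 2 stood apart in that 94.1% of its counts were 5' fragments, against 75.1 to 86.7% in the other libraries.

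3' CCA fragments made up a smaller share of the NSun2-/- libraries. They held 3.08, 5.63, 2.31 and 3.20% of all counts in the 4 WT libraries and 1.68, 0.633, 1.36 and 1.58% in the 4 NSun2-/- libraries. Every WT library lay above every NSun2-/- library. The mean share was 3.56% ± 1.44 for WT against 1.31% ± 0.471 for NSun2-/- (SD, n = 4), with p = 0.0286 in an exact two-sided permutation test over libraries, the smallest p that 70 assignments of 4 against 4 allow, and an adjusted p of 0.0816 over the 20 measures tested in this way. Without any 1 of the 4 NSun2-/- libraries the exact permutation p was 0.0571, with a difference between −2.37 and −2.02 percentage points. Without ArgTCT, the family with the most counts, the shares were 2.57% ± 0.944 and 1.12% ± 0.423 and the WT library with the lowest value, replicate 3 at 1.55%, still lay above the highest NSun2-/- library at 1.47%.

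The difference was also seen against 5' fragments and 3' ends without the tail, but not against mature tRNAs, whose own share was lower as well. On the log2 scale, the ratio of 3' CCA fragments to 5' fragments, the reads that start at the first base of a tRNA, was −4.64, −3.74, −5.21 and −4.72 in WT and −5.67, −7.22, −5.99 and −5.76 in NSun2-/- libraries, a difference of −1.59 with no overlap (p = 0.0286, exact permutation test). NSun2-/- replicate 2 had the lowest ratio, and without it the difference was −1.24 (p = 0.0571, exact permutation test). The log2 ratio to 3' ends that lacked the tail was 2.41, 3.55, 2.72 and 2.61 in WT and 1.96, 0.644, 1.64 and 2.09 in NSun2-/- libraries, a difference of −1.24 with no overlap (p = 0.0286, exact permutation test). This p became 0.0571 in the exact permutation test without WT replicate 2 and without NSun2-/- replicate 2, where the difference was −0.93. Against mature tRNAs, tailed reads that span 90% or more of their gene, the log2 ratio was −1.57, −0.74, −1.55 and −1.03 in WT and −1.44, −1.56, −1.89 and −1.39 in NSun2-/- libraries. Here the genotypes overlapped, and the difference of −0.34 was within the spread between libraries (p = 0.257, exact permutation test). The genes of ArgTCT, which held 24.1% of member counts, are split by an intron and were used unspliced. Spliced mature ArgTCT reads could therefore not be placed as mature tRNAs, and the ratio without this family is not given. Mature tRNAs themselves held 9.18, 9.44, 6.78 and 6.56% of all counts in WT and 4.54, 1.86, 5.06 and 4.14% in NSun2-/- libraries. In this share, too, every NSun2-/- library lay below every WT library, a contrast that was not tested. The log2 ratio to longer reads with the tail, those above 45 nt that were not mature, differed by −0.47 (p = 0.457, exact permutation test). The plot of these measures by library shows the same separation.

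**Figure D1:**
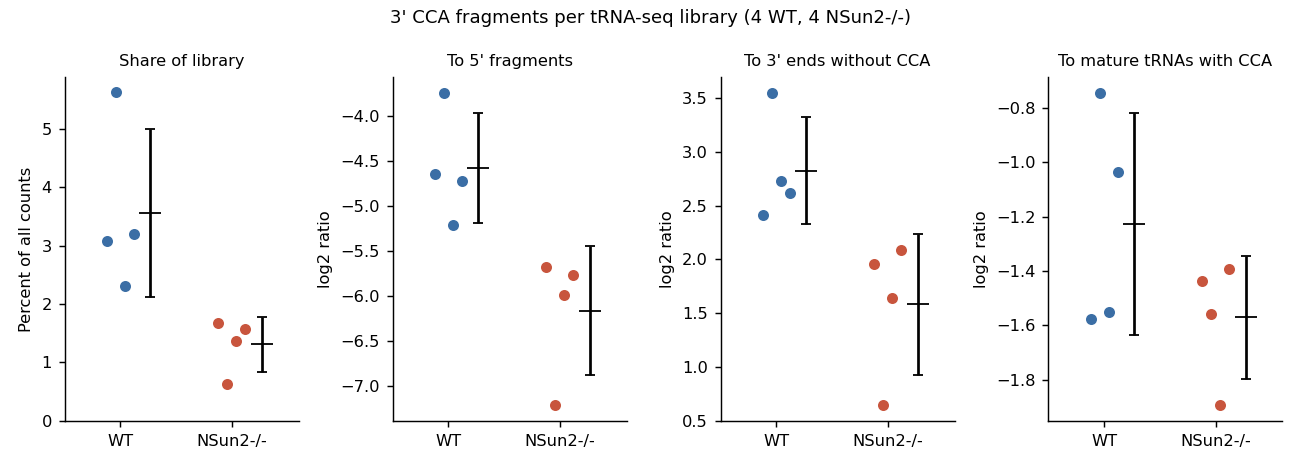
Share of all tRNA-seq counts in 3' CCA fragments (percent) and log2 ratios of 3' CCA fragments to 5' fragments, to 3' ends without CCA and to mature tRNAs, with 1 point per library and the mean with 1 SD beside the points. The 4 NSun2-/- libraries lie below the 4 WT libraries in the first 3 measures, and the genotypes overlap in the ratio to mature tRNAs.

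The fragments fell into discrete lengths, each carried by a few families. Reads of 37 nt were the commonest, with 28.5% ± 9.35 of member counts in WT and 16.8% ± 3.88 in NSun2-/- libraries (SD, n = 4), and 59.9% of them came from ArgTCT and 14.1% from HisGTG. Reads of 38 nt held 15.9% in WT and 14.7% in NSun2-/- libraries, and ArgTCT gave 49.6% of them. Reads of 40 nt held 15.2% in WT and 19.7% in NSun2-/- libraries and came mostly from AspGTC (67.8%) and GluTTC (20.6%). At 29 nt, the length that begins at position 48, GlyTCC gave 42.5% and SerGCT 24.8% of counts. At 22 nt LeuCAG led with 21.0%, and at 18 nt GluTTC with 62.9%. At 18, 37 and 40 nt 1 family thus gave more than 50% of the counts, while no family did at 22, 29 or 38 nt.

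In CPM, counts scaled to 1000000 per library after adjustment for composition, reads of 29 to 45 nt, which begin 5' of position 49, were lower in NSun2-/- skin. Their level was 25787 ± 7790 CPM in WT and 11624 ± 2177 CPM in NSun2-/- libraries (SD, n = 4), without overlap (p = 0.0286, adjusted p = 0.0816, exact permutation test). Reads of 18 to 23 nt, which begin in the T loop, gave 2743 ± 409 and 1896 ± 428 CPM, and reads of 24 to 28 nt, which begin in the T stem, gave 1530 ± 1042 and 798 ± 408 CPM. Neither of these classes reached the threshold (p = 0.0571 and p = 0.286, exact permutation tests). By single lengths, the mean was lower in NSun2-/- libraries at 27 of 28 lengths, and at 7 of them (22, 31, 34, 36, 37, 39 and 42 nt) every NSun2-/- library lay below every WT library. At 37 nt the 4 WT libraries had 3435, 13334, 8425 and 10196 CPM and the 4 NSun2-/- libraries 2305, 2267, 2579 and 2169 CPM, a log2 difference of means of −1.92. WT replicate 1 was the lowest WT library at 37 nt and the highest at 29 nt, where it had 3267 CPM against 1014 to 2200 CPM in the other WT libraries. The length with the highest log2 difference was 41 nt, at 0.16.

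**Figure D2:**
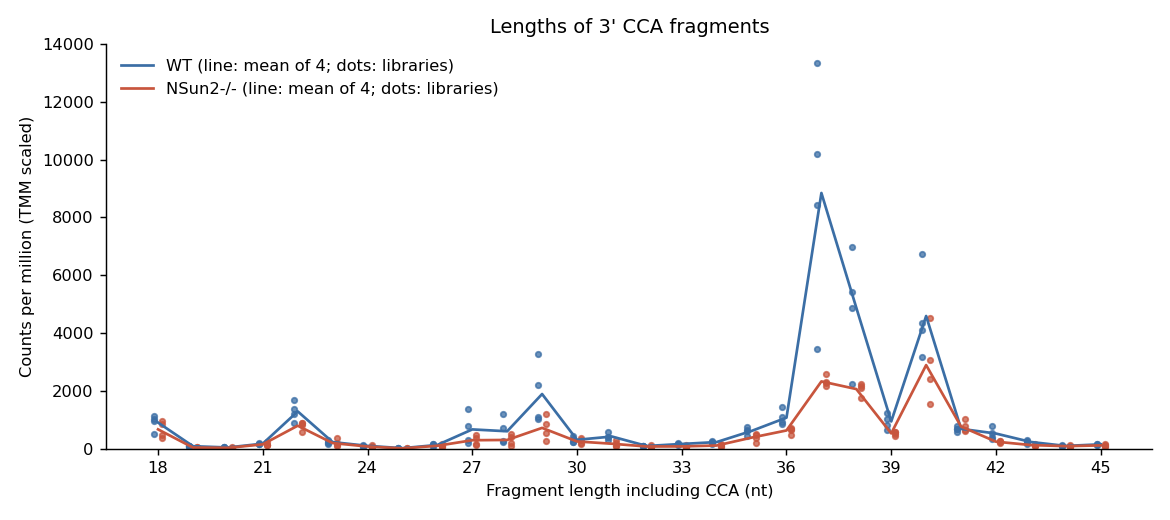
Level of 3' CCA fragments (CPM) at each length from 18 to 45 nt including the tail, with dots for the 8 libraries and lines for the mean of 4 libraries per genotype. The peak at 37 nt is at a mean of 8847 CPM in WT and 2330 CPM in NSun2-/- libraries, and that at 40 nt at 4592 and 2895 CPM.

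The shares of fragments by the site of their first base differed between the genotypes before adjustment. Starts in the anticodon loop (positions 32 to 38) made up 26.9, 25.4, 22.8 and 24.6% of member counts in WT and 29.2, 31.9, 38.5 and 38.3% in NSun2-/- libraries, with no overlap (p = 0.0286, adjusted p = 0.0816, exact permutation test). Starts in the T loop made up 9.35% ± 1.30 in WT and 13.3% ± 2.09 in NSun2-/- libraries (SD, n = 4), also with no overlap (p = 0.0286, adjusted p = 0.0816, exact permutation test). Starts at positions 39 to 48 made up 60.1% ± 7.20 and 46.5% ± 2.78 (p = 0.0571, exact permutation test). The shares in the anticodon loop and in the T loop were separated only with ArgTCT included. The ArgTCT genes are split by an intron and were used unspliced for placing. ArgTCT reads that cross the splice site could therefore be missed, and ArgTCT starts in the anticodon loop may be undercounted. Without ArgTCT, starts in the anticodon loop were 33.6% ± 2.95 in WT and 39.8% ± 5.87 in NSun2-/- libraries, and starts in the T loop were 12.5, 11.9, 13.97 and 12.7% in WT and 17.9, 17.3, 13.7 and 13.4% in NSun2-/- libraries, so that the genotypes overlapped in both. In contrast, starts at positions 39 to 48 were 46.4% ± 2.83 and 38% ± 2.91, with all 4 WT libraries (43.5 to 49.2%) above all 4 NSun2-/- libraries (34.9 to 40.6%). The share of counts that began anywhere 5' of position 49 was 85.2% ± 5.69 and 81.3% ± 3.33 (p = 0.314, exact permutation test), and the count-weighted mean length was 35.1 and 34.8 nt (p = 0.571, exact permutation test). A p that misses the threshold does not show that these values are equal.

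By isoacceptor family, 3' CCA fragments moved in 1 direction. Of 49 families with enough counts to test, 17 (34.7%) were lower in NSun2-/- skin at an adjusted p under 0.05 in edgeR's quasi-likelihood test and 0 were higher. Over all 228 combinations of family and read class in the same fit, 20 were lower (8.77%) and 14 were higher (6.14%). The median log2 change was −0.93 over the 49 families and −0.06 over all 228, and 48 of the 49 values were below 0. At an unadjusted p under 0.05, 27 families were lower and 0 higher. Unadjusted counts over all 228 combinations are not given here, so that those of the families stand without a background. The count depended on single libraries, with 6 families called without NSun2-/- replicate 3 and 8 without WT replicate 2. On simulated data the test recovered 30.8% of families made to change by 1 on the log2 scale and 73.7% of those changed by 2, so that a missing call does not show an unchanged family. In the same simulation of 228 combinations of family and read class, 4 that had not been changed were called, so that single calls can be false.

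In the same fit, few families of the other read classes were called lower. Of 49 families of 5' fragments, 0 were lower and 10 were higher in NSun2-/- skin, with a median log2 change of 0.34. Of 43 families of 3' ends without CCA, 1, AspGTC, was lower and 3, GluCTC, SerGCT and LeuCAA, were higher (median 0.38). Of 17 families of mature tRNAs 1, GlyGCC, was lower and 0 were higher (median −0.60). Of 70 families of reads in none of these classes, 1, SerAGA/SerTGA, was lower and 1 was higher (median 0.0056). Of the 17 families whose 3' CCA fragments fell, 15 had 5' fragments that could be tested, and 2 of these were called, both higher: HisGTG and the joined family GlyCCC/GlyGCC. The families tested are not the same in each class, the medians are relative to the scaling of the fit, and the difference between classes was not tested. Mature reads of several families had negative values that did not pass the test, such as −0.88 for HisGTG and −1.32 for GlyCCC (adjusted p = 0.115 and 0.0857, edgeR).

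The 5 falling families with the largest log2 changes were SerAGA/SerTGA, GlyGCC, SerTGA, ArgTCT and the proline family ProAGG/ProCGG/ProTGG. SerAGA/SerTGA fragments, of which 44.8% were of 34 nt, had 197, 255, 122 and 177 CPM in the WT and 36.3, 20.1, 26.7 and 52.6 CPM in the NSun2-/- libraries, a log2 change of −2.47 ± 0.35 (SE, adjusted p = 0.00233, edgeR). The reads of SerAGA/SerTGA outside the fragment and mature classes also fell, with a log2 change of −2.07 (adjusted p = 0.00233, edgeR). GlyGCC, the tRNA whose 5' fragments made up 74.1% ± 1.62 of all 5' fragment counts in WT, gave 3' CCA fragments at 299, 404, 142 and 276 CPM in WT and 72.7, 42.8, 55.5 and 60.9 CPM in NSun2-/- libraries. This was a log2 change of −2.27 ± 0.33 (SE, adjusted p = 0.00233, edgeR), and the mature GlyGCC reads fell by 1.22 on the log2 scale (adjusted p = 0.0139, edgeR). The proline tRNAs share their 3' parts across 3 anticodons and changed by −2.0 ± 0.40 (SE, adjusted p = 0.00972, edgeR), and SerTGA by −2.05 ± 0.46 (SE, adjusted p = 0.0139, edgeR). In SerAGA/SerTGA, GlyGCC, ProAGG/ProCGG/ProTGG and ArgTCT the call held under each of 15 alternative settings, and that for SerTGA was lost, among the fits that leave out 1 library, without WT replicate 2 (edgeR, adjusted p = 0.0593) and without NSun2-/- replicate 3 (edgeR, adjusted p = 0.0579).

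**Figure D3:**
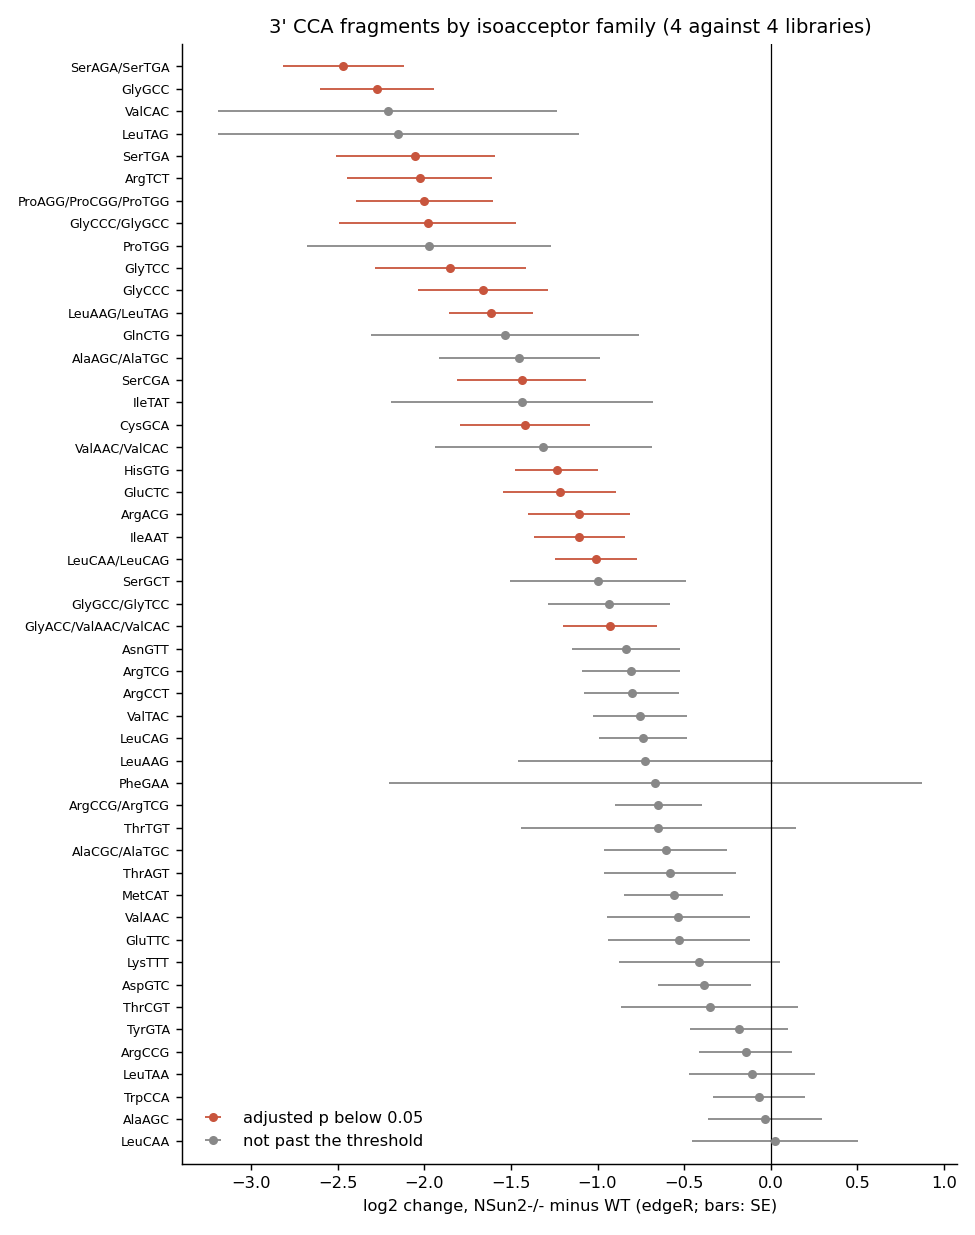
Log2 change of 3' CCA fragments in NSun2-/- against WT skin for the 49 isoacceptor families tested, with 1 SE from the edgeR fit on 4 libraries per genotype. The 17 families past the threshold run from −2.47 (SerAGA/SerTGA) to −0.93 (GlyACC/ValAAC/ValCAC), and 48 of the 49 points lie below 0.

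Among the families with the most counts, HisGTG and the glycine tRNAs fell while AspGTC and GluTTC did not pass the test. HisGTG, the tRNA for histidine, had 2044, 3090, 2180 and 2837 CPM in WT and 1158, 866, 1091 and 1198 CPM in NSun2-/- libraries. Its log2 change was −1.23 ± 0.24 (SE, adjusted p = 0.00972, edgeR) with no overlap between genotypes, while its 5' fragments rose by 1.46 (adjusted p = 0.00972, edgeR). Within HisGTG, the fragments of 18 to 23 nt were at 109 ± 20.7 CPM in WT and 107 ± 37.0 CPM in NSun2-/- libraries, and those of 29 to 45 nt at 2179 ± 499 and 832 ± 127 CPM (SD, n = 4). Thus the long fragments of this tRNA were lower in each NSun2-/- library while the short ones had nearly equal means, a contrast that was seen in the values and not tested.

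GlyTCC fragments, mostly of 29 nt, had 1839, 1713, 1037 and 1434 CPM in WT and 420, 148, 344 and 758 CPM in NSun2-/- libraries. The log2 change was −1.85 ± 0.43 (SE, adjusted p = 0.0168, edgeR), and without NSun2-/- replicate 3 the adjusted p was 0.0675. Unlike those of HisGTG, the short GlyTCC fragments of 18 to 23 nt were also lower, at 71.3, 199, 131 and 110 CPM in WT and 13.2, 3.54, 5.77 and 1.27 CPM in NSun2-/- libraries. Their commonest sequence, of 22 nt with an unaltered A at position 58, is shown with the same capitals.
GlyTCC, 22 nt: tcgAttcccggccaacgcaCCA
It was counted 1599, 4519, 2759 and 2559 times in WT and 279, 79, 119 and 0 times in NSun2-/- libraries, with an adjusted p of 0.111 in edgeR's test per sequence. GlyCCC fell by 1.66 on the log2 scale (SE 0.37, adjusted p = 0.0139, edgeR), a call that was lost without NSun2-/- replicate 3 (adjusted p = 0.0579) and with fragments limited to 25 to 40 nt (log2 change −1.17, adjusted p = 0.106).

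AspGTC, the tRNA for aspartate and the second largest source of 3' CCA counts (20.0%), had 4278, 6912, 4083 and 5143 CPM in WT and 3443, 2990, 4578 and 4632 CPM in NSun2-/- libraries. The genotypes overlapped, and the log2 change was −0.38 ± 0.27 (SE, adjusted p = 0.36, edgeR). The 3' ends of AspGTC without CCA were called lower, with a log2 change of −1.20 (adjusted p = 0.0139, edgeR). Its mature reads changed by −0.85 and did not pass the test (adjusted p = 0.0868, edgeR). GluTTC, with 6.52% of the counts, changed by −0.53 ± 0.41 (SE, adjusted p = 0.415, edgeR). NSun2-/- replicate 4 had 2188 CPM of GluTTC, above 3 of the 4 WT libraries (1896, 2176, 1120 and 1835 CPM), and the other NSun2-/- libraries had 1263, 512 and 901 CPM. The other glutamate tRNA, GluCTC, fell by 1.22 (SE 0.33, adjusted p = 0.0295, edgeR), a call that was lost without WT replicate 2, WT replicate 4 or NSun2-/- replicate 3 (adjusted p = 0.108, 0.0668 and 0.0951) and with library totals without TMM (adjusted p = 0.0604). The 3' ends of GluCTC without CCA were called higher in the same fit, with a log2 change of 1.21 (adjusted p = 0.0106, edgeR).

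SerGCT fragments varied widely within WT, with 2788, 1598, 641 and 647 CPM against 1188, 434, 498 and 728 CPM in NSun2-/- libraries, a log2 change of −0.99 ± 0.51 (SE, adjusted p = 0.212, edgeR). ArgCCT changed by −0.80 ± 0.27 (SE, adjusted p = 0.0691) and ValTAC by −0.76 ± 0.27 (SE, adjusted p = 0.0837, edgeR), and both passed the threshold without WT replicate 1 (adjusted p = 0.0313 and 0.0407). ArgACG fell by 1.11 (SE 0.29, adjusted p = 0.0282, edgeR), but the call was lost without WT replicate 2, 3 or 4 or NSun2-/- replicate 2 or 3 (adjusted p between 0.0544 and 0.101) and with library totals without TMM (adjusted p = 0.0604). The low-count family CysGCA, at 16.0 to 27.1 CPM in WT and 5.68 to 11.8 CPM in NSun2-/- libraries, changed by −1.42 ± 0.38 (SE, adjusted p = 0.0282, edgeR), and 6 of the 8 libraries were each needed for its call (adjusted p between 0.052 and 0.0951 without 1 of WT replicates 1 to 3 or NSun2-/- replicates 2 to 4).

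The remaining families passed the threshold with changes between −1.98 and −0.93. They were GlyCCC/GlyGCC, LeuAAG/LeuTAG, SerCGA, IleAAT, LeuCAA/LeuCAG and GlyACC/ValAAC/ValCAC, and they are named here after their values were seen. Reads of 18 to 23 nt, which begin in the T loop, made up 95.7% of LeuAAG/LeuTAG, 80.3% of GlyACC/ValAAC/ValCAC, 74.8% of LeuCAA/LeuCAG and 50.9% of SerCGA counts. LeuAAG/LeuTAG had 170, 300, 193 and 206 CPM in WT and 84.5, 71.1, 66.1 and 62.1 CPM in NSun2-/- libraries. LeuCAA, ValAAC and ValCAC are tRNAs named by the study and had few fragments. LeuCAA, the family with a value above 0, had 2.97 to 9.13 CPM in WT and 4.48 to 7.03 CPM in NSun2-/- libraries (log2 change 0.02 ± 0.48, SE, adjusted p = 0.976, edgeR), and its sign turned under other scaling. ValAAC changed by −0.53 (adjusted p = 0.415) and ValCAC, a single sequence, by −2.21 (adjusted p = 0.153, edgeR). LysCTT, also named by the study, had no family of 3' CCA fragments of its own.

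A cytosine at the positions NSun2 methylates was common both in the families that fell and in the others. The gene of the commonest fragment encoded C at position 48 in 15 of the 17 families called lower and in 23 of the 32 families not called. C at both 48 and 49 was present in 9 of 17 and 13 of 32. In ArgTCT, which is among the families with the largest falls, chr19.trna637 and chr11.trna1818 encoded no C at positions 48 to 50, chr13.trna985 had C at position 50 and chr3.trna628 at positions 49 and 50. These counts describe the genes and were not tested.

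ArgTCT, the tRNA that reads the arginine codon AGA, carried 24.1% of all 3' CCA counts and can be followed gene by gene, since the 3' part differs between its genes. The family had 2704, 13518, 8216 and 9322 CPM in WT and 1927, 1787, 2332 and 2238 CPM in NSun2-/- libraries, a log2 change of −2.03 ± 0.42 (SE, adjusted p = 0.0106, edgeR). WT replicate 1 was closest to the NSun2-/- libraries but still above all of them. Nearly all of these counts (99.7%) were reads of 29 nt or more, while ArgTCT fragments of 18 to 23 nt were at 11.9 ± 3.35 CPM in WT and 10.2 ± 3.21 CPM in NSun2-/- libraries (SD, n = 4). The family made up 11.5, 32.7, 32.9 and 30.7% of member counts in WT and 12.3, 17.2, 16.2 and 13.4% in NSun2-/- libraries, so that by this share WT replicate 1 lay below all NSun2-/- libraries.

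The ArgTCT genes fell by different amounts. Fragments of chr19.trna637 had 1195, 6962, 3887 and 4439 CPM in WT and 835, 807, 1101 and 1070 CPM in NSun2-/- libraries, 4.32-fold lower in the mean. Those of chr3.trna628 had 1168, 4191, 3007 and 3340 CPM in WT and 950, 897, 1106 and 1008 CPM in NSun2-/- libraries, 2.95-fold lower. Those of chr13.trna985 had 265, 1848, 1024 and 1237 CPM in WT and 75.7, 37.9, 57.6 and 80.1 CPM in NSun2-/- libraries, 17.4-fold lower. In each of these 3 genes the 4 NSun2-/- libraries lay below the 4 WT libraries. The least abundant gene, chr11.trna1818, had 290 ± 175 CPM in WT and 63.7 ± 13.9 CPM in NSun2-/- libraries (SD, n = 4) and overlapped through WT replicate 1. Its commonest fragment differs from that of chr19.trna637 only in the base after position 58. Misread chr19.trna637 fragments among the chr11.trna1818 counts cannot be told apart, and their part was not tested.

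Accordingly chr13.trna985 gave a smaller part of the ArgTCT fragments in NSun2-/- skin. It gave 9.81, 13.7, 12.5 and 13.3% of them in WT and 3.93, 2.12, 2.47 and 3.58% in NSun2-/- libraries, and here WT replicate 1 was near the other WT libraries. Because the share is taken within the family, it does not depend on library scaling. Among ArgTCT 3' ends without the tail, the same gene gave 1.40% ± 0.0963 in WT and 0.767% ± 0.306 in NSun2-/- libraries (SD, n = 4). The difference between genes was noticed in these values and was therefore not tested.

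**Figure D4:**
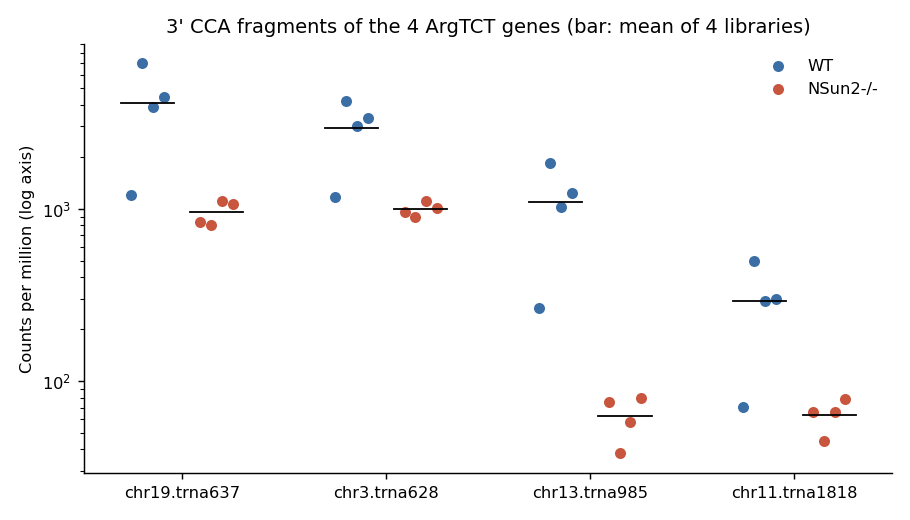
Level of ArgTCT 3' CCA fragments (CPM, log axis) by tRNA gene, with 1 point per library and a bar at the mean. Fragments of chr13.trna985 are 17.4-fold lower in NSun2-/- than in WT means, those of chr19.trna637 4.32-fold and those of chr3.trna628 2.95-fold, and WT replicate 1 is the lowest WT point in each gene.

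Most members differed from the encoded sequence, and the difference lay mainly at position 58. Reads with 1 mismatch held 77.2% of the member counts, reads without mismatch 15.8% and reads with 2 mismatches 6.97%. Among counts of fragments that cover it, a base other than the encoded one stood at position 58 in 82.4% ± 2.73 in WT and 82.2% ± 1.56 in NSun2-/- libraries (SD, n = 4, p = 0.914, exact permutation test), counted over genes that encode A there. The bases read were mostly T (54.1% ± 1.19 in WT and 56.8% ± 0.728 in NSun2-/- libraries, with no overlap, p = 0.0286, adjusted p = 0.0816, exact permutation test) and G (27.6% and 24.7%, p = 0.2, exact permutation test). The share was lower in mature tRNAs, at 19.2% ± 2.81 and 20.1% ± 0.705, and higher in longer reads with the tail that were not mature, at 92.3% ± 0.815 and 93.4% ± 0.481. In 3' ends without the tail it was 63.7% ± 5.02 in WT and 76.8% ± 2.17 in NSun2-/- libraries, and the genotypes did not overlap. Reads with more mismatches could not be placed under the limits used, so that these shares concern placed reads.

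The mismatch share differed far more between families than between genotypes. Its median over 44 families with position 58 in every library was 89.3%, with 29 families above 80% and 2 below 10%. ArgTCT stood at 96.8%, HisGTG at 96.0% and GluTTC, whose commonest long fragment carried the encoded A, at 3.58%. Per library, GluTTC ranged from 2.33 to 4.02% in WT and from 3.61 to 6.45% in NSun2-/- libraries. In 4 families, AspGTC, GlyTCC, ValTAC and GlyGCC, every NSun2-/- library had a higher share than every WT library, and in 0 families every one had a lower share. The smallest adjusted p over the 44 exact permutation tests was 0.314, so that no family passed. In AspGTC the share was 40.9, 54.3, 49 and 57.8% in WT and 63.6, 69.1, 66.9 and 74.8% in NSun2-/- libraries. In GlyTCC the means were 86.0% and 97.1%, in ValTAC 96.9% and 98.2%, and in GlyGCC 96.9% and 99.2%.

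The AspGTC difference can be read in its 2 commonest fragments, which have the same ends and differ at position 58. The fragment with the encoded A had 656, 1219, 664 and 893 CPM in WT and 245, 186, 380 and 534 CPM in NSun2-/- libraries, without overlap, and a log2 change of −1.35 ± 0.40 (SE, adjusted p = 0.146, edgeR). The fragment with T (A58T) had 1015, 2397, 968 and 1627 CPM in WT and 936, 713, 1420 and 2069 CPM in NSun2-/- libraries, with overlap, and a log2 change of −0.23 ± 0.43 (SE, adjusted p = 0.885, edgeR). Neither sequence passed the threshold. Their common factors were 8 and 65, so that the share within AspGTC depends on how the deposited counts were made and added. With all counts divided by their common factor, an alternative chosen after seeing the data, AspGTC fragments as a family passed the threshold (log2 change −0.80, adjusted p = 0.0459, edgeR).

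**Figure D5:**
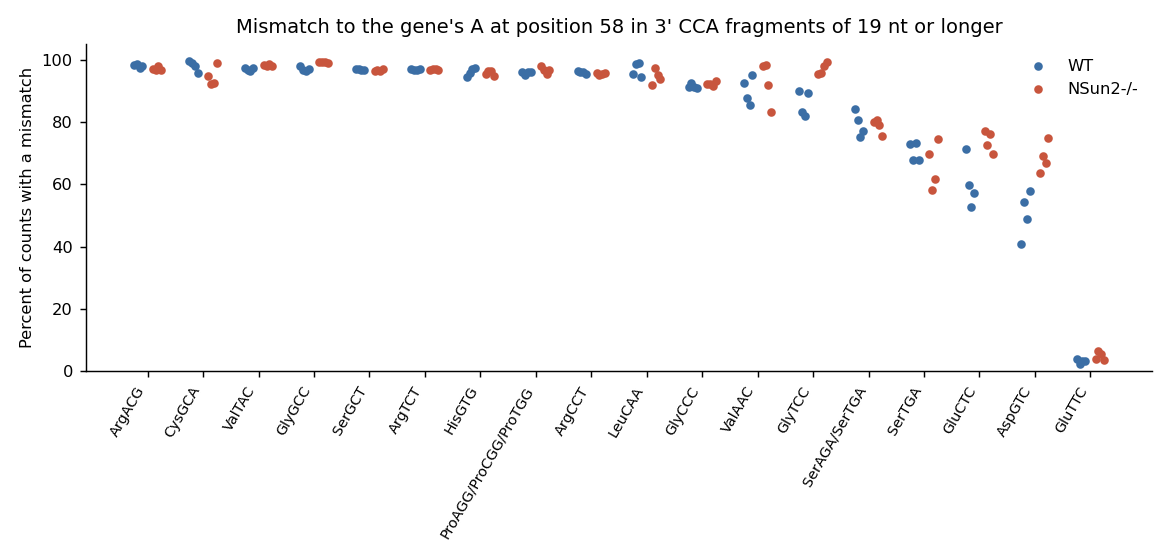
Share of 3' CCA fragment counts with a base other than the encoded one at position 58 (percent), by isoacceptor family named in the text, with 1 point per library. AspGTC runs from 40.9 to 57.8% in WT and from 63.6 to 74.8% in NSun2-/- libraries, GluTTC stays under 6.5%, and ArgTCT and HisGTG lie above 94% in both genotypes.

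At the level of single sequences, 1689 of the 4028 members had enough counts to test, and 58 were lower and 0 higher in NSun2-/- skin at an adjusted p under 0.05 in edgeR's quasi-likelihood test. Over all 13179 sequences tested, 177 were lower (1.34%) and 119 were higher (0.903%). The members had a median log2 change of −0.76, against −0.08 over all sequences, and at an unadjusted p under 0.05 there were 296 lower and 13 higher. Unadjusted counts over all sequences are not given here, so that those of the members stand without a background. In each of the 58 sequences the NSun2-/- libraries lay below the WT libraries, which adds no support, since the same values gave the calls. The 58 sequences held 16.7% of the member counts. ArgTCT gave 15 of them, HisGTG 6, GlyCCC 6 and GlyGCC 5. The number rested on all 8 libraries, as it was between 0 and 80 without 1 library: 80 without WT replicate 1, 5 without NSun2-/- replicate 2 or 4, 1 without WT replicate 4 and 0 without any of the others. In simulated data 17.4% of sequences with a log2 change of 4 and 1.56% of those with a change of 2 were recovered.

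The 3 called sequences with the most counts were the fragments of chr19.trna637 with T or G at position 58 and the HisGTG fragment. The 37 nt ArgTCT fragment of chr19.trna637 with T at position 58 was counted 8660, 60465, 30085 and 37295 times in WT and 4120, 5080, 6775 and 4220 times in NSun2-/- libraries, a log2 change of −2.57 ± 0.53 (SE, adjusted p = 0.047, edgeR), and that with G changed by −2.66 ± 0.55 (SE, adjusted p = 0.0469, edgeR). That of chr13.trna985 was counted 1845, 15660, 7625 and 10115 times in WT and 330, 215, 310 and 325 times in NSun2-/- libraries, a log2 change of −4.68 ± 0.65 (SE, adjusted p = 0.0185, edgeR). The HisGTG fragment was counted 13049, 19574, 20159 and 26144 times in WT and 6344, 5534, 6119 and 4589 times in NSun2-/- libraries, a log2 change of −1.62 ± 0.28 (SE, adjusted p = 0.0273, edgeR). The corresponding fragment of chr3.trna628 had lower counts in each NSun2-/- library as well but missed the threshold (log2 change −1.92 ± 0.42, SE, adjusted p = 0.0556, edgeR). The 2 commonest GluTTC fragments, of 40 and 18 nt, changed by −0.50 and −0.31 (adjusted p = 0.736 and 0.844, edgeR).

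The 5 called sequences with the largest fitted changes were at 0 counts in all 4 NSun2-/- libraries and low in WT. They were a proline fragment of 36 nt (54, 283, 226 and 112 counts in WT), a HisGTG fragment of 38 nt (35, 107, 179 and 71 counts), 2 AspGTC fragments of 40 nt and an IleAAT fragment of 42 nt. With 0 counts in NSun2-/- libraries, all 5 passed the filter on low counts through their WT counts alone. The AspGTC and IleAAT counts were 1 to 3 times their common factors of 65 and 38, and how these factors arose was not settled. Because the filter and the test depend on such factors, the calls of the AspGTC and IleAAT sequences cannot be read as a change. These calls remain in the number of called sequences given above. No fold is given for any of the 5 sequences. Of the members seen in at least 2 libraries, 369 were seen in WT libraries alone and 29 in NSun2-/- libraries alone. These counts move with the larger number of member counts in the WT libraries. Over the whole tRNA-seq table, too, WT libraries held more distinct sequences, 17138 to 21177 against 15342 to 16759 in NSun2-/- libraries. The same split over all sequences is not given here, so that the imbalance cannot be read as particular to the members.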

How the data were processed

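tRNA-seq had been made from 4 WT and 4 NSun2-/- libraries with the TruSeq Small RNA kit and 16 cycles of PCR. The authors removed adapters, aligned reads to mm9 with Bowtie (version not given in the sources used here), distributed reads with several matches in proportion to unique ones, and trimmed CCA ends from unaligned reads before realignment. The deposited table gives, for every pair of tRNA gene and read sequence, an unscaled count in whole numbers. The labels name the genotype of each library.

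Here counts were added over all genes listed for a sequence, and each sequence was placed on 247 genes (136 distinct sequences) of the study's gene list, cut from mm9 (NCBIM37), with at most 2 mismatches up to 45 nt and 4 above. The genes were used unspliced, so that reads across the intron of a split gene could be missed. Reads were sorted into 3' CCA fragments, 5' fragments, 3' ends without CCA, mature tRNAs and others, and 446 members went to another family than the one listed. Counts were tested with edgeR 4.0.16 (quasi-likelihood, TMM, filterByExpr, adjusted p under 0.05 over the whole table) in R 4.3.3, and single values per library with exact permutation tests in Python 3.11.15. The tests were tested on simulated data. The members and lists were chosen with earlier results of these data known. Families were named by counts (10), by mention in the study and by the 5 largest changes past the threshold, and sequences by counts (10) and the 5 largest changes. Alternatives covered DESeq2 1.42.0, scaling, filter, length, mismatches, denominator, the replicate block, each library left out and, added after seeing the data, the common factor of the counts and the share without ArgTCT. Same-numbered libraries had correlations of their deviations of 0.0075, −0.19, 0.039 and −0.08, so that the numbers were not taken as pairs.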

Additional observations from a re-analysis of the deposited data

Results flagged for a closer look

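Single libraries stood apart from the other 3 of their genotype in 5 of 52 groups of 4 values examined, where the gap to the nearest value exceeded Dixon's 95% critical share of the whole range. By chance this happens in about 5% of such groups. WT replicate 1 had 76.7% of its 3' CCA counts starting 5' of position 49, against 87.6 to 88.4% in the other WT libraries, and a mean fragment length of 33.4 nt against 35.6 nt in each of the others. WT replicate 2 had 1106 CPM of ArgACG fragments against 734 to 779 CPM. NSun2-/- replicate 1 had 11.8 CPM of CysGCA fragments against 5.68 to 6.60 CPM in the other NSun2-/- libraries. WT replicate 4 had 7.46 CPM of the single ValCAC fragment against 0.803 to 1.24 CPM.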

How the results depend on the processing

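No family of 3' CCA fragments was higher under any alternative. The 17 families called lower became 26 with DESeq2, 7 with the replicate block, 20 with counts divided by their common factor, an alternative chosen after seeing the data, and 6 to 20 without 1 library. The 58 sequences called lower became 209 with DESeq2 (and 12 higher), 4 without the filter on low counts, 0 with the replicate block and 0 to 80 without 1 library. The difference in the share of 3' CCA fragments was −2.66 to −1.55 percentage points without 1 library, that in the log2 ratio to 5' fragments −1.80 to −1.24 and that in the ratio to 3' ends without CCA −1.41 to −0.93. The differences in mean length and in mismatches at position 58, neither past the threshold, changed sign: mean length was −0.798 to 0.0607 nt without 1 library and 0.0499 nt without ArgTCT, and mismatches were −1.55 to 0.502 percentage points without 1 library, 0.636 with equal weight for each family and 2.61 without ArgTCT. LeuCAA changed from 0.02 to −0.39 with library totals without TMM and ranged from −0.18 to 0.38 without 1 library. The cause of these changes was not tested. Without TMM the median log2 change of all families moved from −0.06 to −0.45, and 15 families were called lower. Of 284 alternatives for single families, 245 kept direction and call, 27 lost the call, 7 gained it and 5 changed sign. With the replicate block HisGTG, ArgACG, GluCTC, CysGCA and SerTGA lost the call (adjusted p between 0.056 and 0.0976). Depth limits sequences more than families, and the common factor of the counts hides how many reads stand behind a low count.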

Other observations

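GlyGCC fragments of 24 to 28 nt, which begin in the T stem, were at 7.30, 6.21, 2.18 and 2.08 CPM in the WT libraries and listed at 0 in all 4 NSun2-/- libraries. The short fragments of ArgCCT, of 18 to 23 nt, were at 0.427 to 1.52 CPM in WT and 1.39 to 3.02 CPM in NSun2-/- libraries, while its fragments of 29 to 45 nt were at 715 to 1500 CPM and 545 to 792 CPM. Among 5' fragments, GlyGCC made up 74.1% ± 1.62 of counts in WT and 61.6% ± 3.94 in NSun2-/- libraries, and HisGTG 2.55% ± 0.352 and 4.84% ± 0.958 (SD, n = 4). These values were noticed in the data and were not tested.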
